A study of Mus musculus with 12 samples.

Results

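The genes described here encode the proteins of the cytosolic ribosome and were chosen by name. A gene was a member where its symbol began with Rpl or Rps followed by a digit, a, p0, p1, p2 or sa, with pseudogene names (containing -ps) and the Rps6k kinases left out. The rule gave 88 of the 20776 genes in each of the 2 deposited tables, the same 88 in both. Of these, 77 encode core ribosomal proteins, 43 of the large subunit, 31 of the small subunit and 3 of the stalk. The other 11 are paralogs or genes with a like name. Among these 11, Rpl37rt, Rps4l and Rps3a2 are annotated as processed pseudogenes in GENCODE release M21, Rps19bp1 encodes a protein that binds a ribosomal protein, and Rpl7l1 encodes a protein related to Rpl7.

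RNA was sequenced from mouse cortex injured 12 h earlier, after a square of 3 mm around the wound had been cut out and dissociated. Cells were separated by immunopanning, that is, by binding to antibody-coated plates. The astrocyte fraction bound an ACSA-2 plate, and the immune fraction is the cells that bound a plate with secondary antibody alone or a CD45 plate. Each fraction was taken from injured Sema4B+/- mice (heterozygous) and injured Sema4B-/- mice (knockout) and gave 3 libraries per group, 12 in all, with no wild-type and no uninjured group. Sema4B is a membrane semaphorin, a guidance molecule. Age, strain and allele design are not given in the sources used here. Nor is it stated whether each library is its own animal, and the p-values therefore speak only of variation from library to library. Libraries are named by the number in the head of their column, immune heterozygous 1, 3 and 5, immune knockout 7, 9 and 11, astrocyte heterozygous 2, 4 and 6, and astrocyte knockout 8, 10 and 12.

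The libraries held between 11111965 and 15993564 counted reads. Levels are given in CPM, a gene's reads relative to the library total, after scaling of all 12 libraries by the trimmed mean of M-values (TMM), on which 3 reads amount to 0.174 to 0.255 CPM. Sema4b itself stood at 8.83, 6.06 and 7.91 CPM in immune heterozygous libraries 1, 3 and 5 and at 5.38, 2.14 and 1.16 CPM in immune knockout libraries 7, 9 and 11. It stood at 68.9, 110.7 and 61.0 CPM in astrocyte heterozygous libraries 2, 4 and 6 and at 44.9, 27.7 and 58.3 CPM in knockout libraries 8, 10 and 12. Every knockout library was below every heterozygous library of its fraction, and reads remained in all of them. By marker, each fraction was rich in the cells of its label but also held messages of other cells. The summed level of 13 astrocyte markers was 47729 to 54880 CPM in the astrocyte and 1635 to 1827 CPM in the immune heterozygous libraries, and that of 15 microglia markers was 602 to 857 CPM and 16727 to 23150 CPM. In the same order, 16 neuron markers summed to 3180 to 4148 and 3479 to 5579 CPM, and 10 oligodendrocyte markers to 2746 to 5960 and 520 to 533 CPM. In knockout libraries the neuron markers summed to 2728 to 5067 CPM in the astrocyte and 5701 to 9392 CPM in the immune fraction. The part of these other cells in the contrasts below was not tested.

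Ribosomal proteins assemble with ribosomal RNA in the nucleolus into a small subunit, which reads the messenger RNA, and a large subunit, which joins amino acids. Their genes are known to be transcribed in step, and many of the messages begin with a tract of pyrimidines at the first base, the TOP motif, through which mTORC1 and the RNA-binding protein LARP1 adjust their translation. Growing and dividing cells make more ribosomes than resting cells.

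The sequence around the listed start of a few members shows such a tract, or none at that position. Whether transcription began at the listed base in these cells was not tested. The windows below run 5′ to 3′ over 15 bases on each side of the start listed by RefSeq (GRCm38.p6), and capitals mark the longest unbroken run of C or T where it has at least 5 bases. Rps10, Rps18, Rps6, Rps21 and Rpl15 are shown for their run at or across the start, and Rpl12, Rps12, Rps13 and Rpl10 because they were among those that differed most between the fractions. Genes picked in this way do not show whether a tract goes with a fraction difference, and medians over members are given further on.
Rps10: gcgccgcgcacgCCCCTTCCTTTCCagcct
Rps18: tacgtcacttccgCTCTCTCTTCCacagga
Rps6: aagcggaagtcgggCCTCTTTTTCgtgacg
Rps21: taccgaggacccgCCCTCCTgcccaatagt
Rpl15: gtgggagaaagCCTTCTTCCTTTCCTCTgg
Rpl12: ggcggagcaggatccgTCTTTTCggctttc
Rps12: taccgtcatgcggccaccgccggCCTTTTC
Rps13: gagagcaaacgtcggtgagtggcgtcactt
Rpl10: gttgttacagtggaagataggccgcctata
These windows lie, in the same order, at chr17:27635230-27635259 (minus strand), chr17:33955651-33955680 (minus), chr4:86857353-86857382 (minus), chr2:180257364-180257393 (plus), chr14:18270972-18271001 (minus), chr2:32961697-32961726 (plus), chr10:23787195-23787224 (minus), chr7:116334176-116334205 (minus) and chrX:74270801-74270830 (plus). The run was 13 bases long in Rps10, 17 in Rpl15 and 3 in both Rps13 and Rpl10. In Rpl12 and Rps12 a run of 7 bases lay downstream of the listed start.

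Of the 88 members, 66 had a listed start. A run of at least 8 C or T within 15 bases of a start was found in 27 of the 66 (40.9%), against 3760 of all 27025 genes with a listed start (13.9%). A start at C followed by 4 C or T was found in 14 members (21.2%) and in 3.01% of all genes. In the whole window of 300 bases, from 250 before to 50 after a start and on both strands, the ETS-family motif CCGGAAG was in 26 members (39.4%; 9.93% of all genes). The Sp1 motif GGGCGG was in 40 members (60.6%; 38.2%), the YY1 motif AAGATGG in 10 (15.2%; 7.28%) and the TATA sequence TATAAA in 7 (10.6%; 15.7%). A match is a description of the letters and does not show a bound factor. The 250 bases upstream of the Rps10 start (chr17:27635245-27635494, minus strand), shown because Rps10 had the lowest p of any member for a difference in genotype effect between the fractions, hold GGGCGG in 2 places and CCGGAAG in 1, in capitals.
Rps10 upstream: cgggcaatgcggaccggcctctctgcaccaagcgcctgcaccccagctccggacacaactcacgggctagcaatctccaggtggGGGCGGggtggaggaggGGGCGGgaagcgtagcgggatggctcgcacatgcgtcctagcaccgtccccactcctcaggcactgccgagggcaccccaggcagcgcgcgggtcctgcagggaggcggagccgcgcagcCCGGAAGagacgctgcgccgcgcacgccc

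Ribosomal protein messages took a larger share of the immune than of the astrocyte libraries. The 88 genes held 1.47%, 1.10% and 1.32% of the reads of immune heterozygous libraries 1, 3 and 5, and 0.970%, 1.20% and 1.08% of those of immune knockout libraries 7, 9 and 11. In the astrocyte fraction they held 0.478%, 0.391% and 0.458% of heterozygous libraries 2, 4 and 6, and 0.513%, 0.482% and 0.476% of knockout libraries 8, 10 and 12. All 6 immune libraries stood above all 6 astrocyte libraries, while the genotypes overlapped in both fractions. The means were 1.30% ± 0.185 and 1.08% ± 0.115 in the immune and 0.442% ± 0.0457 and 0.490% ± 0.0196 in the astrocyte fraction (SD, n = 3 each, heterozygous first). In these bulk samples, fewer cells of a type and less RNA per cell cannot be told apart.

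**Figure D1:**
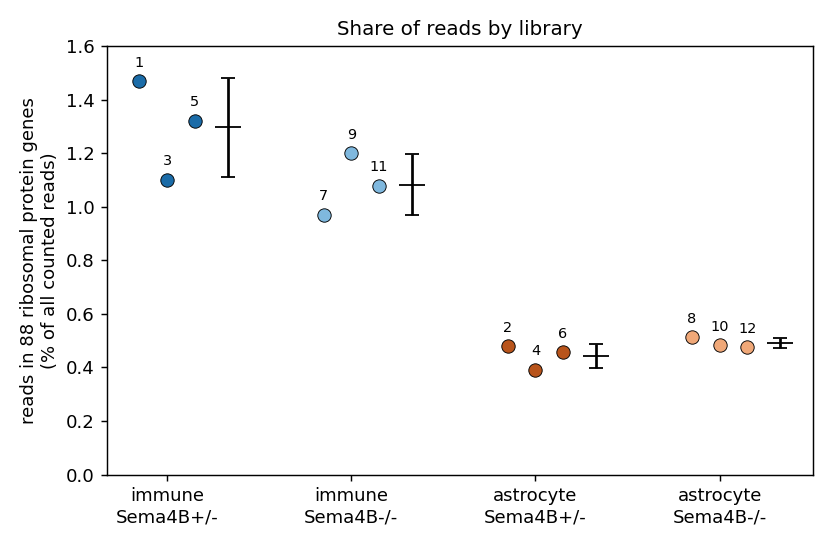
Share of all counted reads that fell on the 88 ribosomal protein genes (percent, vertical axis) in each library, by group. Points are libraries with their number, and the bar beside them is the group mean with its SD (n = 3). The 6 immune libraries sit between 0.970% and 1.47%, above the 6 astrocyte libraries at 0.391% to 0.513%.

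Levels per kilobase (kb) of annotated exon differed widely between members. Averaged over the 12 libraries, the highest was the stalk gene Rplp1 at 678.5 CPM per kb, followed by Rps15 at 503 and the large-subunit genes Rpl4 at 438.5 and Rpl8 at 390.4. The lowest were Rpl3l at 0.386, Rpl39l at 0.923, Rps27rt at 1.26 and Rpl23a at 1.70 CPM per kb. Rpl4 alone took 10.7% of member reads in immune and 10.9% in astrocyte heterozygous libraries. The order of the 88 levels was alike in the 2 fractions of heterozygous mice (Pearson r = 0.95 and Spearman rho = 0.95 of log2 CPM per kb, n = 88 genes, which share the same lengths and counting). Between genotypes, r and rho were 0.997 and 0.994 in the immune and 0.997 and 0.996 in the astrocyte fraction.

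How reads of these genes were counted bears on such levels, and its part in their spread was not tested. Ribosomal protein genes have many processed copies in the genome, and reads that match a copy equally well may be dropped or split. Of all 50-base stretches of a member's transcripts, the median member had 37.1% also in the transcript of another gene, with a range from 0% in 4 members to 95.1% in Rpl35. A stretch also counted as shared where another gene overlaps the member on either strand, so the percentage does not measure copies alone. Exons of other genes cover 66.2% of the exon bases of Rpl35 and 59.7% of those of Rpl23a on the opposite strand, and 47.0% of those of Rpl24 on the same strand. At least 50% were shared in 30 of the 88. Rps6, whose protein is the classic target of S6 kinase, had 84.6% shared and a level of only 3.22 CPM per kb, and Rpl23a had 85.7% shared. Across 88 members, the shared percentage and log2 CPM per kb had a Pearson r of -0.29 and a Spearman rho of -0.30. The level of a member with a high shared percentage is uncertain for that reason, and counts that do not use strand cannot separate the 19 members that overlap an antisense exon.

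Compared with the immune fraction, the astrocyte fraction had lower levels of almost every member in heterozygous mice. Of 87 members tested, 84 were lower (96.6%) with the edgeR quasi-likelihood test and Benjamini-Hochberg adjusted p under 0.05, against 30.3% of all 16880 genes, and 1 was higher (1.15%, against 30%). The median log2 difference over the members was -1.48, a 2.79-fold lower level, and it was -0.04 over all genes. All 31 small-subunit genes, all 3 stalk genes and 42 of 43 large-subunit genes were lower. The medians were -1.54, -1.71 and -1.46. The exceptions were Rpl3l, which was higher, and Rpl23a and Rps4l, which did not pass.

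Rps12, a small-subunit protein, had the largest difference. It stood at 156, 70.3 and 127 CPM in immune libraries 1, 3 and 5 and at 8.97, 12.1 and 12.5 CPM in astrocyte libraries 2, 4 and 6. The lowest immune library was thus several times the highest astrocyte library, and the log2 difference was -3.39 ± 0.28 (SE, adjusted p = 2.5e-07). Rps27a, which is made as a fusion with ubiquitin, stood at 63.8, 35.9 and 47.4 CPM in the immune and 5.53, 5.95 and 5.24 CPM in the astrocyte libraries, a log2 difference of -3.14 ± 0.23 (adjusted p = 8.4e-08). Rpl12, at the base of the stalk, stood at 125, 71.3 and 107 CPM against 12.6, 14.1 and 12.5 CPM. Its log2 difference was -2.95 ± 0.26 (adjusted p = 4.5e-07), and the libraries were again far apart. Rpl10a, Rpl10, which joins the large subunit late in assembly, and Rps13 had -2.88, -2.69 and -2.45.

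The stalk genes, whose proteins recruit elongation factors, lay below the members' median of -1.48 and near their lower quartile of -1.74. Rplp0, the stalk base that carries the acidic proteins, stood at 741, 428 and 474 CPM in the immune and 201, 140.3 and 161 CPM in the astrocyte heterozygous libraries. The groups did not overlap and the log2 difference was -1.71 ± 0.23 (adjusted p = 2.6e-05). Rplp1 and Rplp2 had -1.75 and -1.64. Rpl4, a core large-subunit protein, stood at 1789.8, 1131 and 1236 CPM against 583, 454 and 478 CPM, a log2 difference of -1.46 ± 0.21 (adjusted p = 4.4e-05). All 3 immune libraries again stood above the astrocyte libraries. Rpsa, a small-subunit protein also known as the laminin receptor precursor, had -1.69 ± 0.21. Rps6 had -2.02 ± 0.27 at levels of 7.36 to 10.4 CPM against 1.68 to 2.90 CPM.

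At the other end of the core genes, the large-subunit gene Rpl15 stood at 46.0, 42.3 and 44.1 CPM in the immune and 27.0, 26.5 and 27.1 CPM in the astrocyte libraries. The libraries of each group were close together and the log2 difference was -0.72 ± 0.13 (adjusted p = 0.00027). Rpl23a stood at 1.39, 1.73 and 2.55 CPM against 0.881, 0.818 and 1.79 CPM, and these overlapped (-0.68 ± 0.36, adjusted p = 0.12).

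The size of the fraction difference moved with sequence sharing. Over 87 members, the shared percentage and the log2 difference had a Pearson r of -0.32 and a Spearman rho of -0.36. The median log2 difference was -1.75 in the 29 members with at least 50% of their stretches shared and -1.43 in the 58 with fewer. Among the 10 members with at most 10% shared, 9 were lower and Rpl3l was higher, with a median of -1.37. The part of shared reads in the size of the difference was not tested. Members with a pyrimidine run of at least 8 bases had a median of -1.46 (n = 27) and those with a shorter run -1.54 (n = 38).

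**Figure D2:**
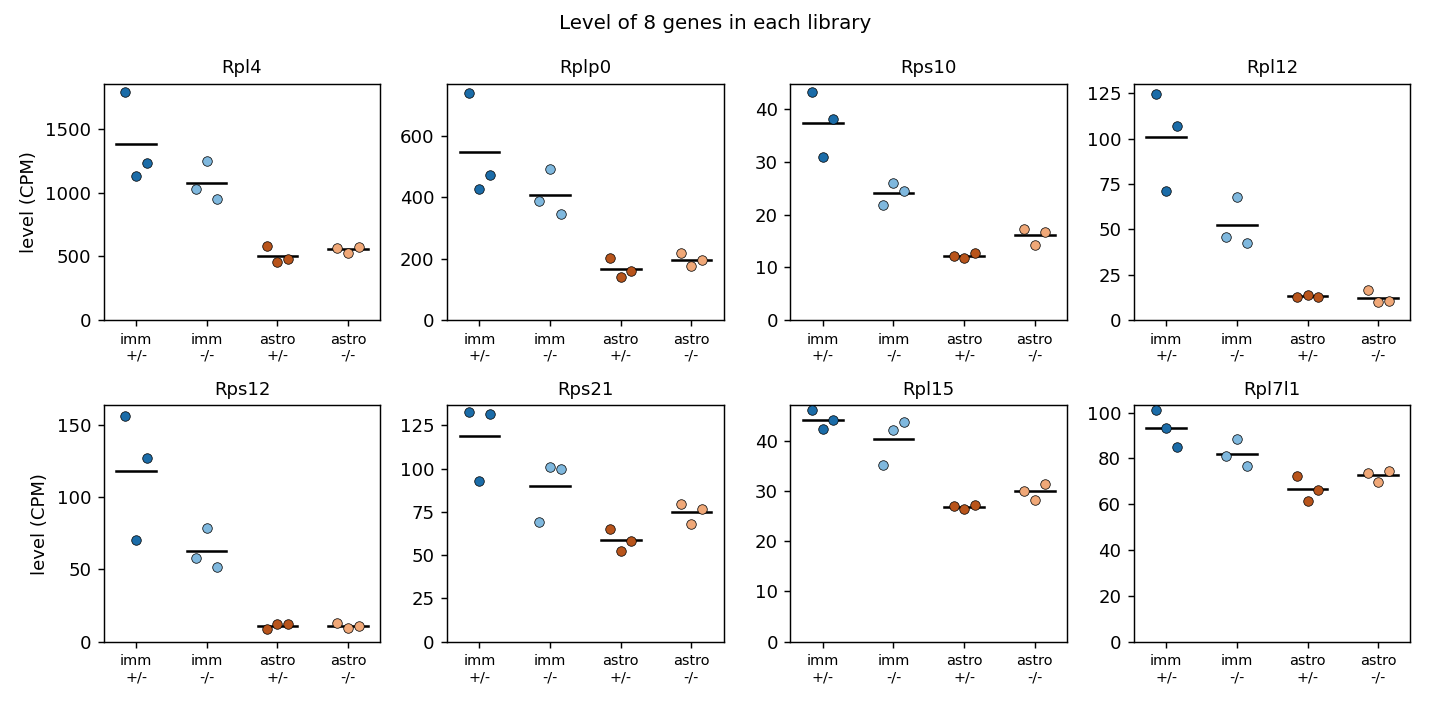
Level in CPM (vertical axes, each from 0) of 8 ribosomal protein genes in every library, by group (imm, immune; astro, astrocyte; +/- and -/-, Sema4B genotype). Points are libraries and bars are group means. As a ratio, Rpl12 and Rps12 drop most from the immune to the astrocyte fraction in heterozygous mice, and Rpl7l1 least. Rps10 is lower in all immune knockout and higher in all astrocyte knockout libraries than in the heterozygous libraries of the same fraction.

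The log2 differences of the 10 tested paralogs and like-named genes ran from -3.35 to 1.18, and those of the 77 core genes from -3.39 to -0.68. Rpl3l, the paralog of Rpl3 known from striated muscle, was the only member higher in the astrocyte fraction. It stood at 1.04, 0.967 and 1.10 CPM in astrocyte heterozygous libraries, from 13, 13 and 16 reads, and at 0.491, 0.289 and 0.595 CPM in the immune ones, from 6, 4 and 7 reads. The log2 difference was 1.18 ± 0.43 (adjusted p = 0.028), a call lost without library 1, 2, 3 or 6 (adjusted p = 0.055, 0.060, 0.10 and 0.071), while Rpl3 itself had -2.15 ± 0.20 (adjusted p = 7.1e-07). Rpl39l, the paralog of the exit-tunnel protein Rpl39 best known from testis, had 34, 20 and 15 reads in the immune and 0, 2 and 5 reads in the astrocyte libraries. Its fitted log2 difference of -3.35 ± 0.75 (adjusted p = 0.0015) rests on these few reads, and Rpl39 had -1.37 ± 0.20.

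The start windows of this pair (chrX:37085208-37085237, minus strand, and chr16:10170213-10170242, plus strand, GRCm38.p6) are shown because the paralogs stood at 23.1 and 0.923 CPM per kb.
Rpl39: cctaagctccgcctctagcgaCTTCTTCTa
Rpl39l: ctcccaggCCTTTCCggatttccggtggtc
The windows of Rps27 and its near-copy Rps27rt (chr3:90213634-90213663 and chr9:114982725-114982754, both minus strand) are shown as an example of members whose sequences are alike.
Rps27: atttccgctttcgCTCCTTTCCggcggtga
Rps27rt: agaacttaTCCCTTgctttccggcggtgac
Rps27rt shared 91.1% of its 50-base stretches and had 3 to 11 reads per library, too few to be tested.

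Of the remaining pairs, Rps27l, a p53 target in human cells, had -0.92 ± 0.19 against -1.85 ± 0.27 for Rps27. Rpl22l1 had -1.25 ± 0.14 against -0.85 ± 0.19 for Rpl22, and Rpl36al had -1.34 ± 0.18 against -1.82 ± 0.24 for Rpl36a. Rpl7l1 had -0.48 ± 0.13 against -1.10 ± 0.17 for Rpl7, and Rps19bp1 had -0.78 ± 0.17. The highest adjusted p among these was 0.00501, for Rpl7l1, and differences between paralogs were not tested. The Rps4x copy Rps4l stood at 19.0, 19.8 and 13.9 CPM in the immune and 13.4, 11.2 and 12.3 CPM in the astrocyte libraries, close together but not overlapping. Its difference did not pass (-0.52 ± 0.22, adjusted p = 0.062).

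In knockout mice the median contrast was closer to 0, though the difference between the genotypes in this contrast passed for no member (tested as an interaction further on). There, 72 of 87 members were lower in the astrocyte fraction (82.8%, against 30.7% of all genes) and Rpl3l was again higher (1.15%, against 29%), while 14 did not pass. The median log2 difference was -0.87, a 1.83-fold lower level, and -0.07 over all genes. The 14 were Rpl21, Rpl22, Rpl23a, Rpl24, Rpl31, Rpl36, Rpl39l, Rpl7l1, Rps14, Rps19bp1, Rps21, Rps27l, Rps29 and Rps3a2. Rps12 again had the largest difference, -2.51 ± 0.28, with 57.8, 78.6 and 51.9 CPM in immune libraries 7, 9 and 11 and 12.9, 9.51 and 10.7 CPM in astrocyte libraries 8, 10 and 12. Rpl23a had 0.51 ± 0.36 (adjusted p = 0.23) and was the only member beside Rpl3l with a positive value (2 of 87, 2.3%, against 47.4%). Rpl3l lost its call without library 8 (adjusted p = 0.057).

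**Figure D3:**
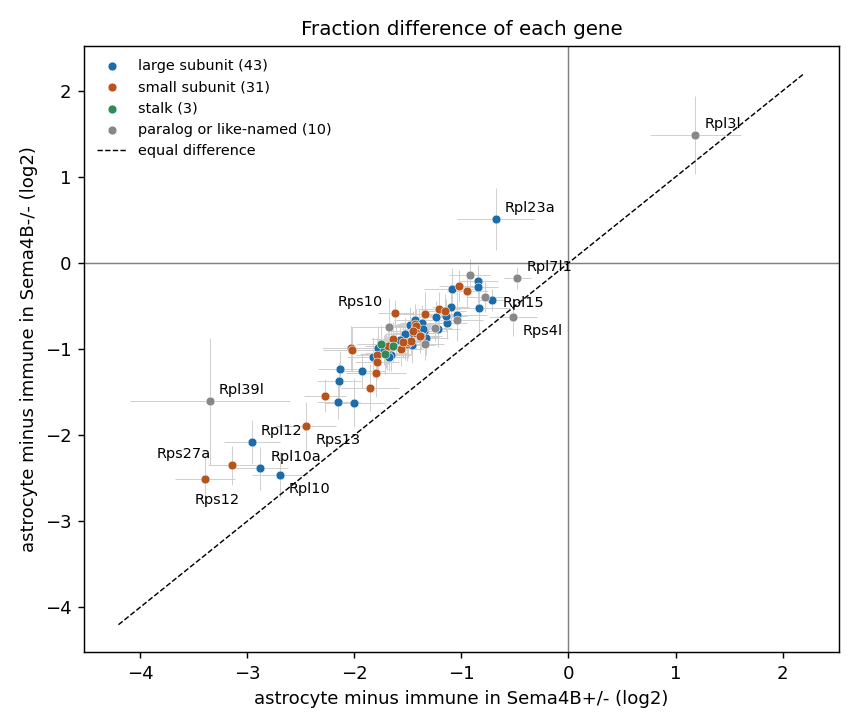
Log2 difference between the astrocyte and immune fractions in heterozygous (horizontal axis) and knockout mice (vertical axis) for 87 ribosomal protein genes, coloured by class, with SE bars. All points but Rps4l lie above the dashed line of equal difference, and the medians are -1.48 and -0.87.

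The rest of the translation machinery differed in this contrast to varying degrees, read against 30.3% of all genes lower and 30% higher. In heterozygous mice, 37 of 38 ribosome assembly genes were lower in the astrocyte fraction and 1 was higher (median -1.53). Heatr1, needed for rRNA transcription and processing, had -2.31 ± 0.19, and Nop16, a nucleolar factor of the large subunit, had -1.85 ± 0.15. Of 42 translation factors, 34 were lower (median -0.73), with Pabpc1, the poly(A)-binding protein, at -2.20 ± 0.23 and the helicase gene Eif4a1 at -1.94 ± 0.18. Of 12 genes of rRNA gene transcription 8 were lower and 1 was higher. Of 10 noncoding snoRNA host genes, several of which are known TOP genes, 9 were lower (median -1.70), Snhg15 by -3.47 ± 0.27. Rack1, which binds the small subunit and is named outside the rule, had -1.86 ± 0.22, and Fau, which encodes a fusion protein with a ribosomal part, had -1.10 ± 0.20.

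The proteins of the mitochondrial ribosome, by contrast, were split. Of 78 genes, 11 were lower and 10 higher, with a median of -0.06. Mrps6 was among the higher ones at 2.06 ± 0.24. Among 23 genes of mTORC1 and its control 10 were lower and 5 higher, against 30.3% and 30% of all genes. Mlst8, a subunit of the mTOR complexes, was higher at 0.79 ± 0.14, while Larp1, the TOP-binding protein, had -1.14 ± 0.19 and Eif4ebp1, the mTORC1-controlled repressor of cap binding, had -1.32 ± 0.17. Among 11 genes of p53 and ribosome stress 5 were lower and 4 higher. Both this list and the mTORC1 list are short, and whether their shares differ from those of all genes was not tested. The p53 target Ccng1 was higher at 1.01 ± 0.15, and Bbc3, a p53 target in cell death, had -2.56 ± 0.22. The highest adjusted p in edgeR among the single genes of the translation machinery, mTORC1 and p53 lists given here was 0.000372, for Fau.

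Within the immune fraction, every tested member had a negative knockout value under scaling by all genes, but no single member passed. Scaling libraries to microglia markers, whose own knockout values were all negative, moved the median of all genes to 0.56 and that of the members to 0.24, so that 79 of 86 values were above 0 while the members' median stayed below that of all genes. Of 86 members tested, 0 were called with edgeR at adjusted p under 0.05, as were 0 of all 15648 genes (0%). All 86 had a negative log2 fold change (100%, against 50.4% of all genes). The median was -0.34 (1.26-fold lower), against -0.0037 over all genes. At an unadjusted p under 0.05, 11 members were lower (12.8%, against 4.9% of all genes) and 0 were higher (against 9.69%). With DESeq2, 1 of the 86 members, Rpl12, passed (adjusted p = 0.040), and 446 of all 15648 genes did in either direction.

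The spread of the libraries limits this comparison. The median member deviated from the heterozygous mean by 0.31, -0.31 and 0.01 on the log2 scale in heterozygous libraries 1, 3 and 5, and by -0.58, -0.17 and -0.45 in knockout libraries 7, 9 and 11. Heterozygous library 3 lay below knockout library 9, with 86 of 88 members under the heterozygous mean, so the groups overlapped for most members. In 12 members (14%) all 3 knockout libraries were lower than all 3 heterozygous libraries, against 11.2% of all genes, a share near the background. In 0 members (against 9.29%) they were all higher. The 12 were Rpl9, Rpl12, Rpl13, Rpl21, Rpl22l1, Rpl23a, Rpl39l, Rps6, Rps10, Rps23, Rps27a and Rps29.

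**Figure D4:**
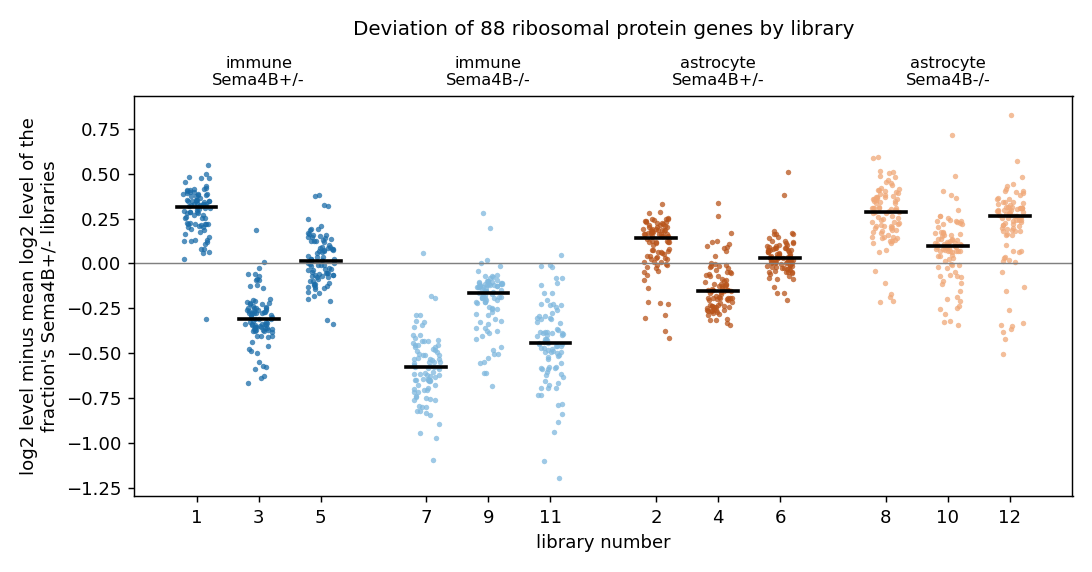
Log2 level (of CPM plus 0.5) of each of 88 ribosomal protein genes minus its mean log2 level in the heterozygous libraries of the same fraction (vertical axis), by library number. Points are genes and bars are medians over genes. Except in libraries 5 and 6, at least 64 of the 88 members lie on 1 side of 0, with medians from 0.31 in library 1 to -0.58 in library 7.

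Rpl12 had the lowest p. Its levels of 125, 71.3 and 107 CPM in heterozygous libraries stood against 45.8, 68.0 and 42.6 CPM in knockout libraries, the highest of which lay just under the lowest heterozygous one. The log2 fold change was -0.89 ± 0.24 (edgeR adjusted p = 0.23). Rps12 had 57.8, 78.6 and 51.9 CPM in knockout libraries against 156, 70.3 and 127 CPM, with 1 knockout library above 1 heterozygous library (-0.84 ± 0.27, adjusted p = 0.25). Rps10, a small-subunit protein that is ubiquitinated on stalled ribosomes, had 43.2, 30.9 and 38.1 CPM against 21.8, 26.0 and 24.5 CPM. Here the groups were apart, and the log2 fold change was -0.57 ± 0.18 (adjusted p = 0.24). Rps27a (-0.63 ± 0.21), Rpl13 (-0.58 ± 0.20), Rpl9 (-0.51 ± 0.18), Rps18 (-0.54 ± 0.20) and Rpl30 (-0.47 ± 0.19) had adjusted p of 0.25 to 0.31.

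Levels of the most abundant members overlapped between the genotypes. Rpl4 had 1029, 1245 and 949.8 CPM in knockout against 1789.8, 1131 and 1236 CPM in heterozygous immune libraries (-0.29 ± 0.24, adjusted p = 0.57). The stalk genes Rplp0, Rplp1 and Rplp2 had -0.35, -0.41 and -0.31. Medians were -0.34 in the large subunit, -0.33 in the small subunit and -0.30 in the 9 tested paralogs and like-named genes. The value closest to 0 was -0.05 ± 0.26 for Rps4l, and next came Rpl15 at -0.06 ± 0.16. Members with and without a pyrimidine run of 8 bases both had a median of -0.34. Members with under 50% of their stretches shared had a median of -0.33 (57 of 57 negative).

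Other genes of the same machinery leaned the same way without passing. In the immune fraction, 10 of 10 snoRNA hosts (median -0.58), 36 of 38 ribosome assembly genes (-0.27), 39 of 42 translation factors (-0.23) and 12 of 12 genes of rRNA gene transcription (-0.23) had negative values. The 78 mitochondrial ribosomal protein genes had a median of 0.0043, with 38 negative. Snhg15, Zfas1 and Snhg12 had -0.74 ± 0.22, -0.72 ± 0.22 and -0.64 ± 0.19, and the growth regulator Myc had -1.22 ± 0.38, all with adjusted p of 0.23 to 0.24.

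Markers of several cell types moved in the same libraries. All 15 microglia markers had negative values in knockout (median -0.51), and their summed level was 16727 to 23150 CPM in heterozygous and 9801 to 15240 CPM in knockout libraries. All 12 neutrophil markers (-0.81; 1568 to 3206 and 724 to 1855 CPM) and all 10 monocyte markers (-0.82; 335 to 575 and 195 to 387 CPM) were also negative. All 16 neuron markers were positive (0.65; 3479 to 5579 and 5701 to 9392 CPM), as were all 13 endothelial and mural markers (1.08; 93.8 to 138 and 44.0 to 535 CPM). No marker was at 0 in all libraries of the fraction. The scaling to microglia markers given above, a setting added after seeing the data, moves all genes together and is no test of cell makeup. The part of cell makeup in the members' values was not tested.

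Within the astrocyte fraction, most members had a slightly higher mean level in knockout libraries, again with no member passing. Of 86 members tested, 0 were called with edgeR (0% of all 15468 genes), and 0 with DESeq2, which called 1 gene in all. The log2 fold change was positive in 74 members (86%, against 50.7% of all genes), with a median of 0.22 against 0.0036 over all genes. At an unadjusted p under 0.05, 8 members were higher (9.3%, against 1.7%) and 0 lower (against 2.13%). In 17 members (19.8%, against 6.04%) all knockout libraries were above all heterozygous ones, and in 0 (against 4.89%) they were all below. The median member deviated from the heterozygous mean by 0.14, -0.15 and 0.03 in libraries 2, 4 and 6 and by 0.29, 0.09 and 0.26 in libraries 8, 10 and 12. Heterozygous library 2 was thus above knockout library 10.

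The member with the lowest p was Rps21, a small-subunit protein. It had 65.2, 52.2 and 58.0 CPM in heterozygous libraries and 79.7, 67.8 and 76.9 CPM in knockout libraries, with no overlap. The log2 fold change was 0.36 ± 0.11 (edgeR adjusted p = 0.93). Rps10 had 12.1, 11.8 and 12.7 CPM against 17.3, 14.3 and 16.6 CPM, also without overlap (0.40 ± 0.14, adjusted p = 0.93). Rps25 (0.30 ± 0.11), Rps16 (0.34 ± 0.13) and Rps27l (0.36 ± 0.13) came next. Small-subunit genes made up 6 of the 8 with an unadjusted p under 0.05, Rps10, Rps15, Rps16, Rps21, Rps25 and Rps28, and the others were Rpl37a and Rps27l. Of the 86 members tested, 31 were small-subunit and 43 large-subunit genes, and a difference between the subunits was not tested. Medians were 0.23 in the small and 0.21 in the large subunit.

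The 12 members with negative values (14%, against 49.3%) included several of those with the largest fraction difference. Rpl10a (-0.16 ± 0.15), Rpl10 (-0.15 ± 0.17), Rpl12 (-0.08 ± 0.21), Rps12 (-0.02 ± 0.19) and Rps13 (-0.03 ± 0.25) were among them, as was Rpl5 (-0.21 ± 0.26), which with Rpl11 binds MDM2. Rpl12 had 12.6, 14.1 and 12.5 CPM in heterozygous and 16.6, 10.2 and 10.2 CPM in knockout libraries, with 1 knockout library high and the others low. Leaving out single libraries turned the sign of Rpl12, Rps12, Rps13 and Rpl37rt, so no direction can be given for these. An adjusted p that misses the threshold does not show that levels were alike.

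In the same fraction, 73 of 77 mitochondrial ribosomal protein genes were positive (median 0.17), as were 10 of 10 snoRNA hosts (0.21) and 38 of 42 translation factors (0.12), while ribosome assembly genes had a median of 0.03. Mrpl40 had 0.34 ± 0.12 and the synthetase complex gene Eef1e1 0.35 ± 0.12 (adjusted p = 0.93 each). All 13 endothelial and mural markers were negative (median -0.42; summed level 1069 to 2098 CPM in heterozygous and 987 to 1516 CPM in knockout libraries). Of 13 astrocyte markers 12 were positive (0.12; 47729 to 54880 and 44352 to 65854 CPM), and of 15 microglia markers 13 were positive (0.16; 602 to 857 and 575 to 1034 CPM). The part of these in the members' values was not tested.

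Set side by side, the genotype difference had opposite signs in the 2 fractions for most members. It was negative in the immune and positive in the astrocyte fraction for 74 of 85 members (87.1%, against 25.8% of all genes tested in both). For 2 of 85 (2.35%, against 0.527%), Rps10 and Rps29, all knockout libraries were lower in the immune and all higher in the astrocyte fraction. Rps29 had few reads, with 6.13, 5.12 and 5.27 against 2.72, 4.77 and 5.05 CPM in the immune and 1.92, 2.23 and 2.34 against 2.62, 2.92 and 2.76 CPM in the astrocyte fraction. The difference of the genotype effect, astrocyte minus immune, was tested in the fit of 12 libraries. It passed for 0 of 87 members with edgeR (0% of all 16880 genes) and for 0 with DESeq2, which called 3 genes in all. The value was positive in 86 members (98.9%, against 53.5%) and negative in 1 (1.15%, against 46.5%), with a median of 0.64 against 0.04. At an unadjusted p under 0.05, 55 members were positive (63.2%, against 4.06%; 54 members in either direction with DESeq2) and 0 negative (against 6.32%).

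Rps10 had the lowest p in that test, with a difference of 1.03 ± 0.22 (unadjusted p = 0.00046, edgeR adjusted p = 0.47). Its range was 0.91 to 1.15 when single libraries were left out. Of the exon bases of Rps10 (ENSMUSG00000052146), 20.6% also lie in another gene on the same strand and 8.18% in a gene on the opposite strand. The overlapping genes are Gm15420 and RPS10-NUDT3. What this overlap does to the count of Rps10 depends on counting settings that are not given. Rps6 had 1.01 ± 0.37 and Rplp1 had 0.82 ± 0.30. Medians were 0.66 in the small subunit, 0.63 in the large subunit and 0.39 in 10 paralogs and like-named genes. The one negative value was -0.11 ± 0.32 for Rps4l, which turned positive without library 5 (0.03) or library 9 (0.12). Beside these, 10 of 10 snoRNA hosts (median 0.77, Snhg12 at 1.04 ± 0.24), 38 of 38 ribosome assembly genes (0.38) and 41 of 42 translation factors (0.36) were positive, as were all 15 microglia markers (0.79), and all 16 neuron markers (-0.60) were negative. Members share libraries and scaling, so 55 values under 0.05 are not 55 separate observations.

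**Figure D5:**
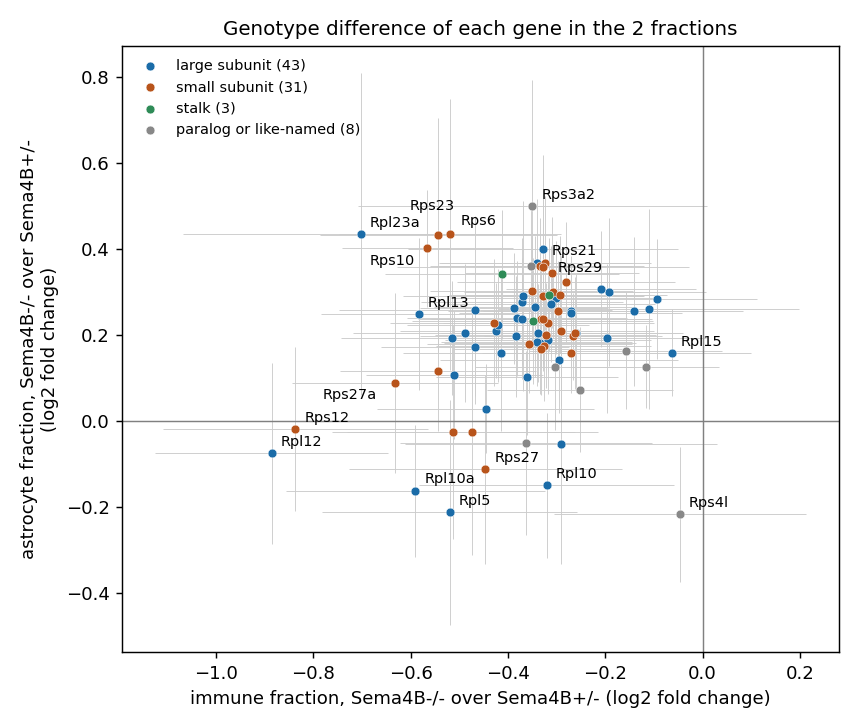
Log2 fold change of knockout over heterozygous libraries in the immune (horizontal axis) and the astrocyte fraction (vertical axis) for 85 ribosomal protein genes, coloured by class, with SE bars. All points lie left of 0, with 74 above 0 on the vertical axis. Scaled to microglia markers, 79 of 86 immune values were above 0, with a median of 0.24 against 0.56 for all genes. No gene passed the adjusted edgeR test in either fraction. With DESeq2, 1 of 86 members, Rpl12, passed in the immune fraction, as did 446 of all 15648 genes.

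The authors' deposited table gives the same signs from their own fit. In it, 88 of 88 members had a negative log2 fold change in the immune fraction (median -0.32), with a lowest adjusted p of 0.071, for Rpl12. In the authors' deposited table for the astrocyte fraction, 75 members were positive and 13 negative (median 0.22), and the lowest adjusted p was 1. The authors' deposited table held 9 members with an unadjusted p under 0.05 in the immune and 7 in the astrocyte fraction.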

How the data were processed

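Counts per gene came from 2 deposited tables, 1 per fraction, with 6 libraries each. Per the file headers they are raw counts. Per the submitters' processing notes, cutadapt, STAR, HTSeq and DESeq2 were used on GRCm38. Versions, annotation, strand setting and the treatment of reads with several matches are not given in the sources used here. The deposited log2 fold changes and p-values are the authors' own and were only compared. Column heads and sample titles number the libraries differently, so columns were assigned to groups only.

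Genotypes were compared in a fit per fraction of 6 libraries, and the fractions and their interaction in 1 fit of 12, by the edgeR quasi-likelihood test (edgeR 4.0.16, R 4.3.3; TMM, filterByExpr with minimum count 10 and total 15, robust, two-sided). The Benjamini-Hochberg adjustment ran over every gene in a fit (threshold 0.05). Tested members numbered 86 per fraction and 87 in the fit of 12 libraries. Rps27rt was not tested, nor was Rpl3l in the immune or Rpl39l in the astrocyte fraction. Library totals were 11111965 to 15993564 reads, and the floor of 3 reads covers counting error only. The 12 pairs of replicates had a mean chi-square per gene of 10.9 to 79.9, so none was a copy.

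Coordinates, exon lengths and shared 50-base stretches came from GENCODE M21 (GRCm38), and starts from RefSeq (GRCm38.p6). For a gene with several listed starts, any start counted for the shares and the one with the longest run is shown. The script was tested on simulated data. Members and gene lists were chosen with earlier results of these data known. Named genes were paralog pairs, the lowest p of each comparison and direction (up to 8 members over 5 CPM), the 4 highest and 4 lowest members, stalk genes, Rpsa, Rps6, Rack1, Fau and up to 3 genes of each pathway list. Some genes that this rule covers are not reported here. Other genes named here were chosen after their values were seen. Alternatives were RLE and upper-quartile scaling, TMM without the members, DESeq2 1.42.0, other count filters, other fits and leaving out each library.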

Additional observations from a re-analysis of the deposited data

How the results depend on the processing

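Over all results and settings, 238 summary values were rated the same, 9 were weaker, 1 stronger, 1 reversed and 2 moved. A count was rated the same within a fixed fold of the main count, and a median or share within the SD of libraries in a group. Such counts could still differ. Those of members lower in heterozygous mice ran from 56 to 85 over other settings, all rated the same. The 56 were among the 58 tested members with under 50% of their stretches shared, so this count is smaller because fewer were counted. Of single-gene values 1231 kept their direction and call, 17 were weaker, 5 stronger and 18 reversed. With DESeq2, 1 member was called lower in immune knockout in place of 0, and 446 of all 15648 genes were called in either direction. Scaled to microglia markers, a setting chosen after seeing the data, the immune median turned to 0.2385 and Rps10 to 0.021, Rpl9 to 0.0495, Rps18 to 0.0344 and Rpl30 to 0.11, while the median of all genes moved to 0.56. Members called higher in the astrocyte fraction numbered 0 in place of 1 in heterozygous mice with DESeq2 or a minimum count of 30, and 0 to 1 leaving out single libraries. In knockout mice the number was 0 with a minimum count of 30 or a fit of 6 libraries, and 0 to 1 leaving out single libraries. Among members with under 50% of their stretches shared, 47 of 58 were lower in knockout mice, a smaller count because fewer were counted. The share of reads in astrocyte knockout libraries was 0.528% without mitochondrially encoded genes.

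Leaving out single libraries, the member median ranged from -0.47 to -0.23 in the immune fraction, 0.14 to 0.26 in the astrocyte fraction, and 0.45 to 0.77 for their difference. In the astrocyte fraction values turned sign within these ranges, -0.37 to 0.031 for Rpl12 (turned without library 10 or 12), -0.19 to 0.057 for Rpl37rt (2 or 8), -0.31 to 0.074 for Rps13 (4, 6, 10 or 12) and -0.19 to 0.072 for Rps12 (4, 6 or 10). Between fractions in knockout mice, Rps27l ranged from -0.23 to 0.015, positive without library 9. The interaction of Rps4l ranged from -0.32 to 0.12, positive without library 5 or 9. Among members lower in knockout mice, Rpl7 and Rps4x lost their call without library 8, 9 or 10 (adjusted p up to 0.092 and 0.12), Rpl39 without library 9 (0.053), and Rps4l without library 9, 10 or 12 (up to 0.16). Rpl39l gained one without library 12 (0.0062), and in heterozygous mice Rpl23a without library 6 (0.023) and Rps4l without library 5 (0.032). The cause of these changes was not tested. Counts of members lower in the astrocyte fraction ranged from 83 to 85 in heterozygous and 64 to 77 in knockout mice. No paired analysis was run, because the labels do not pair the libraries and the columns could not be matched to single samples. The tests between fractions and of the interaction therefore treated all libraries as independent. Column numbers alternate between the fractions, and whether libraries with neighbouring numbers came from the same tissue is not given. Members with few reads, such as Rpl3l, Rpl39l and Rps27rt, are limited by depth.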
